A study of Homo sapiens with 6 samples.

Results

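Glycosyltransferases of the families that build mucin-type O-glycans and N-glycans were examined in A549 cells that overexpress TIPARP. These families also hold enzymes of other glycans, such as B3GALT4, B4GALT5 and ST3GAL5 of ganglioside and lactosylceramide synthesis. The sums and splits by role below include them. Members were chosen by gene symbol alone, as the numbered genes of the GALNT, MGAT, GCNT, B3GNT, B3GALT, B3GALNT, B4GALT, B4GALNT, FUT, ST3GAL, ST6GAL and ST6GALNAC families. Of B4GALNT only members 1 to 3 were taken, and MGAT4C and MGAT4D were left out. This gave 80 of the 53826 gene entries listed for each library. A549 cells come from a human lung adenocarcinoma. The A549-TIPARP line was stable and was made by retroviral transduction with pMXs-TIPARP, and A549-GFP cells, transduced with pMXs-GFP in the same way, were the control, so that both lines carry a retroviral vector. The labels call both kinds of cells stable overexpressors, and whether either was a clone is not given in the sources used here. RNA-seq was performed on 3 libraries of each line, named here replicates 1, 2 and 3 after the experiment number in the labels. Separate cultures are not stated, and p-values then measure only the spread between these libraries, which may be technical. Levels were deposited as log2 TPM, where TPM is an entry's share of a library's transcripts, corrected for transcript length. The lowest listed value is a log2 TPM of 0, or 1 TPM, called the floor below. No counts were used, so the depth behind each value is unknown.

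Mucin-type O-glycans start in the Golgi, where GALNT enzymes attach N-acetylgalactosamine to serine or threonine, and they grow from there as core structures. N-glycans are transferred to asparagine as a preformed oligosaccharide in the endoplasmic reticulum, trimmed, and then branched in the Golgi by MGAT enzymes. Both kinds of chain are extended by galactosyl- and N-acetylglucosaminyltransferases and capped with fucose and sialic acid, and in airway epithelium they cover secreted and membrane-bound mucins. TIPARP is a mono-ADP-ribosyltransferase whose own gene is a target of the aryl hydrocarbon receptor (AHR).

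The transgene was visible in the libraries, with TIPARP at 6.79, 11.4 and 3.68 TPM in the control (A549-GFP) replicates 1, 2 and 3 and at 131, 90.5 and 123 TPM in A549-TIPARP replicates 1, 2 and 3. Of the marker lists, epithelial markers were above the floor for 8 of 8 genes, endothelial markers for 0 of 6, fibroblast and mesenchymal markers for 2 of 8 and leukocyte markers for 2 of 4. The summed fibroblast markers stood between 1.09 and 1.44 TPM in A549-GFP libraries and between 1.64 and 2.56 TPM in A549-TIPARP libraries, and the summed leukocyte markers between 3.73 and 10.9 TPM and between 6.72 and 12.5 TPM. Entries at the floor were counted as 0 in these sums and in all sums and shares of sums below. The fibroblast sum, carried by COL1A1 and LUM with DCN, PDGFRA and PDGFRB at the floor, did not overlap between the lines, and PTPRC and CD3E were at the floor among the leukocyte markers. The 2 leukocyte markers above it, CD14 and LYZ, had higher means in A549-TIPARP cells with overlap between the lines, at a median log2 fold change of 0.68, or 1.16 when A549-GFP replicate 2 was left out. Among the epithelial markers, KRT19 was at 4.57, 2.54 and 5.36 TPM in the control replicates and at 19.2, 19.0 and 10.9 TPM in the A549-TIPARP ones, and AKR1B10 was at 7637, 5621 and 6749 TPM and at 5397, 5539 and 4938 TPM. The lines did not overlap for these epithelial genes, KRT19 being the higher in A549-TIPARP cells (limma adjusted p-value of 0.283) and AKR1B10 the lower, and they overlapped for the other 6. Among all genes tested below, the lines did not overlap for 5.36% in the higher and 3.54% in the lower direction. The part of these marker levels in the results below was not tested. A549-GFP replicate 2 stood apart within its line. Each library was set against the average of its own line. The root mean square difference was 0.621 on the log2 scale for this library and 0.185 to 0.400 for the other 5. The keratins KRT8 and KRT18 of A549-GFP replicate 2 were the lowest of the 6 libraries.

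In all, 55 of the 80 members were above the floor in at least 1 library, and 50 exceeded 2 TPM in 1 or more of the 6 libraries and were tested, among 13181 genes that did so. A member can pass this filter through 1 library alone. The 5 members above the floor that were not tested were MGAT4A, ST6GALNAC1, ST6GALNAC3, B4GALNT3 and B3GALT5, and none of them exceeded 1.98 TPM in any library. The 25 members at the floor in all 6 libraries included MGAT3, which adds the bisecting N-acetylglucosamine of N-glycans, GCNT1, a core 2 enzyme of O-glycans, B3GNT6, the core 3 synthase, and 6 of the 11 FUT genes, namely FUT2, FUT3, FUT5, FUT6, FUT7 and FUT9. The others at the floor were GALNT5, GALNT8, GALNT15, GALNT16, GALNT17, GCNT4, GCNT7, B3GALNT1, B3GALT1, B3GALT2, B3GNT4, B3GNT7, B3GNT8, B4GALNT2, ST6GALNAC2 and ST6GALNAC5. A listing at the floor says only that a gene did not exceed 1 TPM.

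**Figure D1:**
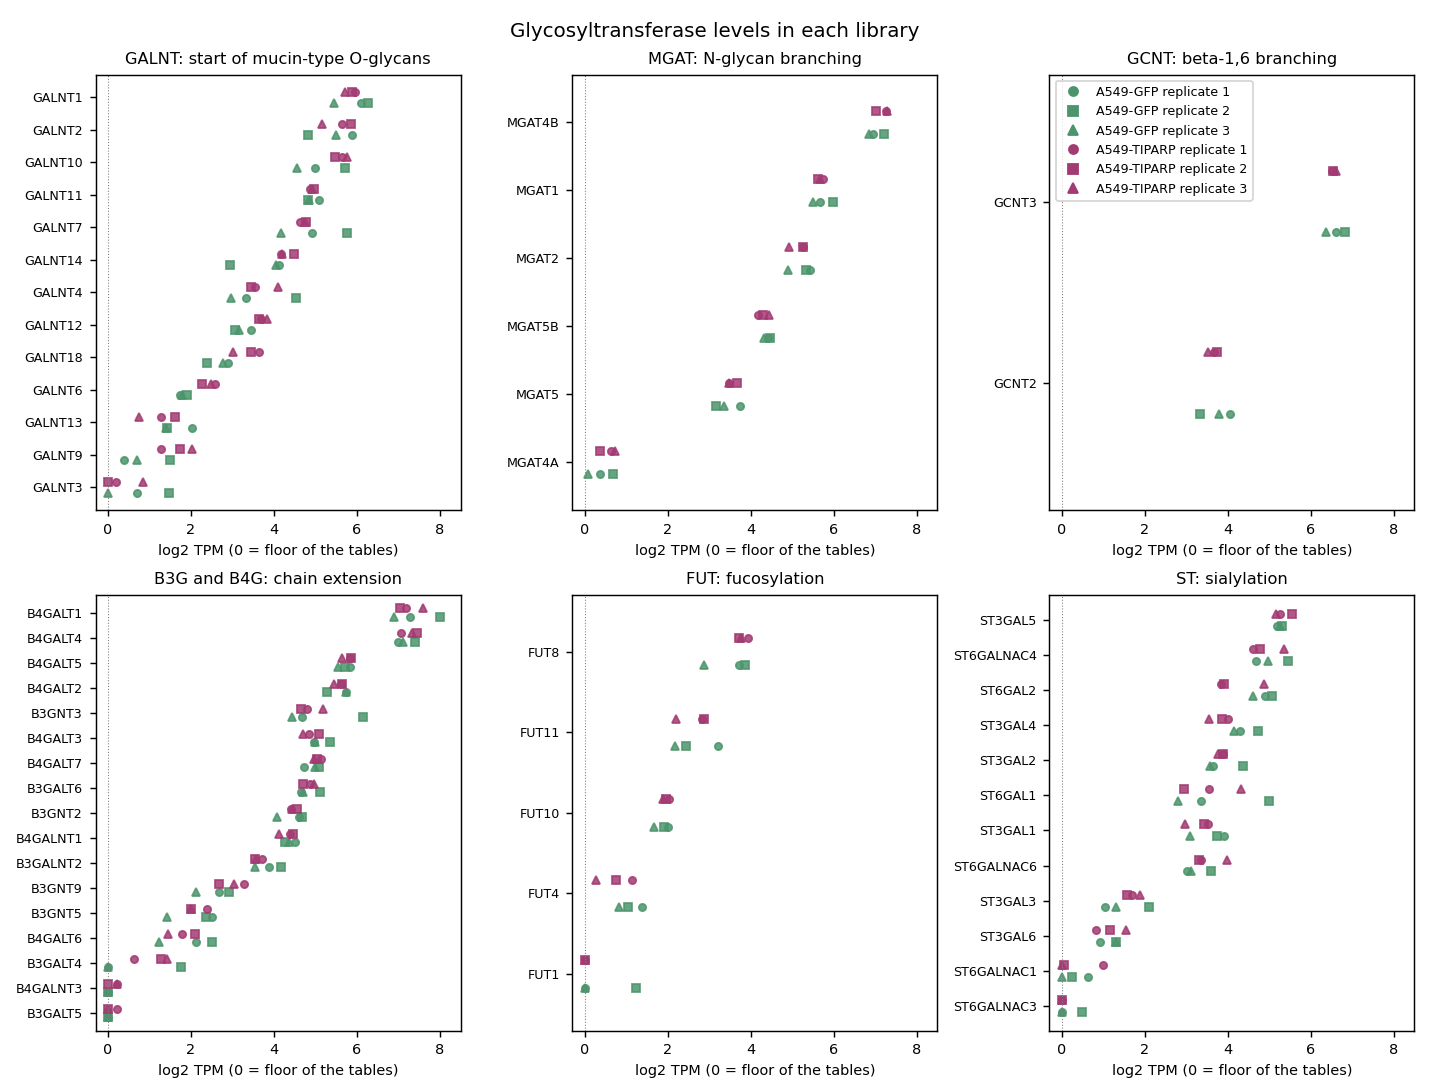
Level of each of the 55 glycosyltransferases above the floor, by role, in log2 TPM on the horizontal axis, with 1 point per library (green, A549-GFP; purple, A549-TIPARP; the marker shape gives the replicate). Galactosyltransferases B4GALT1 and B4GALT4 and the branching enzyme MGAT4B had the highest levels, and A549-GFP replicate 2 (green squares) was the highest library for 22 of the 50 tested members.

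No member had a mean difference of more than 2-fold between the lines. Of the 50 tested, 0 were more than 2-fold higher in A549-TIPARP cells, where 1.53% of all genes tested were, and 0 were more than 2-fold lower, where 0.432% of all genes were. No member passed the limma test with Benjamini-Hochberg adjustment over all genes, in which 2 genes or 0.0152% had an adjusted p-value under 0.05, one of them TIPARP itself, and the smallest adjusted p-value of a member was 0.994. At an unadjusted limma p-value under 0.05 there were 3 members, or 6% of those tested, against 3.85% of all genes. These were GALNT6 and GALNT18, higher in A549-TIPARP cells, and ST3GAL4, lower. In RNA from whole cultures, fewer cells with a transcript and less transcript per cell cannot be told apart.

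The position of the 3 libraries of one line against the 3 of the other gave the same genes and a few more. All A549-TIPARP libraries were above all A549-GFP libraries for 4 of 50 members, or 8%, against 5.36% of all genes, and the 4 were GALNT6, GALNT12, GALNT14 and GALNT18. The reverse held for 1 member, ST3GAL4, or 2%, against 3.54% of all genes. In either direction the share was 10% of the members and 8.91% of all genes. The mean was higher in A549-TIPARP cells for 25 of 50 members, or 50%, against 40.1% of all genes, and the median log2 fold change of the members was -0.00, with -0.07 over all genes. With each library rescaled by a median ratio, taken against the mean library, the split became 31 higher and 19 lower, with 49.9% of all genes higher.

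The limma intervals show what these 3 against 3 libraries can bound. The 95% interval of the difference on log2(TPM + 1) lay wholly within 2-fold for 40 of the 50 members, or 80%, and for 79.3% of all genes. Its half-width ran from 0.39 for MGAT4B to 1.20 for ST6GAL1. The 10 members whose interval reached past 2-fold were GALNT7, GALNT9, GALNT10, GALNT14, GALNT18, B3GALT4, B3GNT3, ST3GAL4, ST6GAL1 and ST6GAL2. The added 1 TPM shrinks differences near the floor, so for genes of low level these intervals do not bound the fold in TPM. The log2 fold change of GALNT6 was 0.52 on log2(TPM + 1) and 0.64 on the deposited log2 TPM, and that of FUT1 was -0.25 and -0.41.

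**Figure D2:**
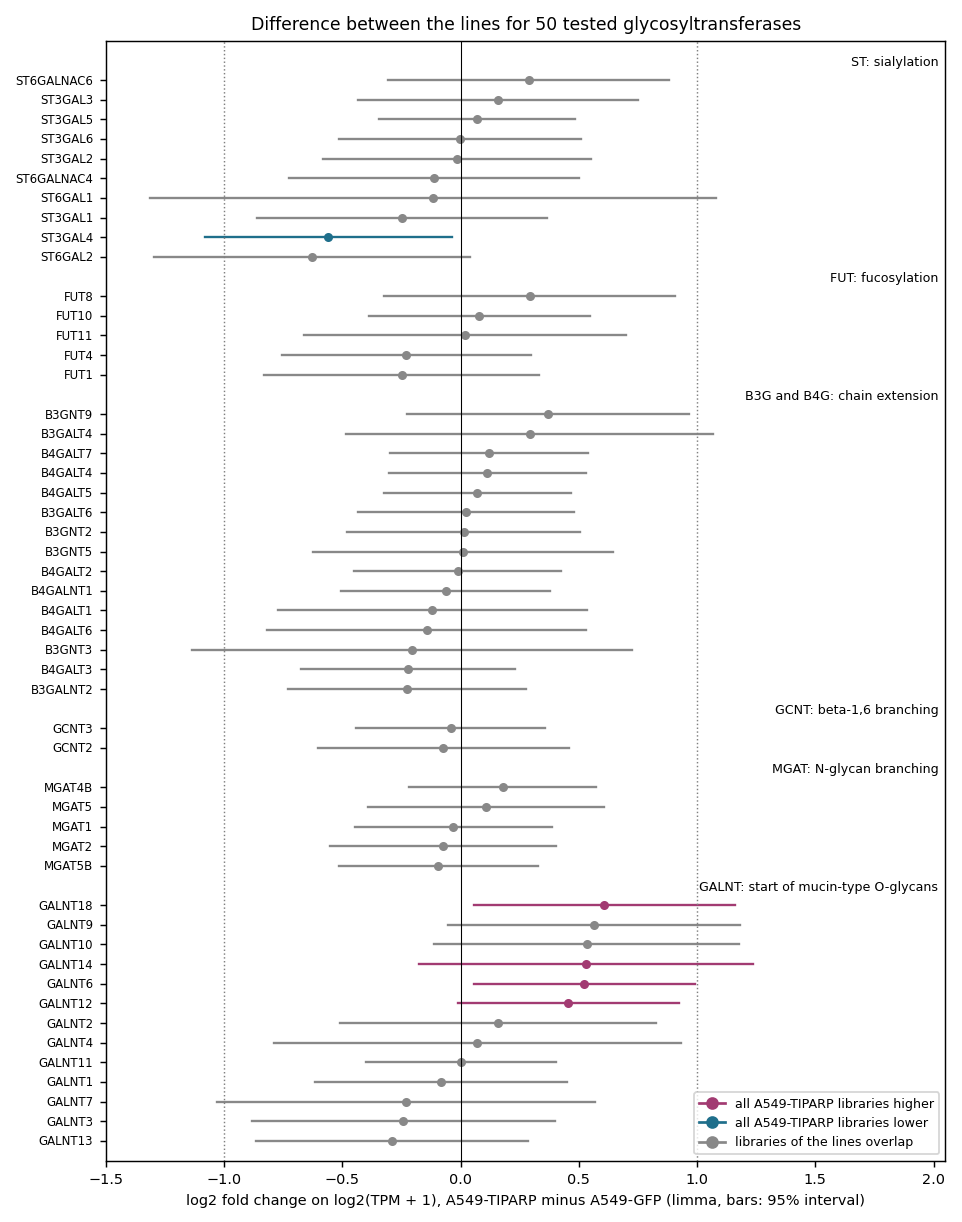
Difference between the lines for the 50 tested members, grouped by role, as the limma log2 fold change on log2(TPM + 1) with its 95% interval, and dotted lines at 2-fold. GALNT6, GALNT12, GALNT14 and GALNT18 (purple) had all A549-TIPARP libraries above all A549-GFP libraries, ST3GAL4 (blue) had the reverse, and no point lay beyond 2-fold.

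The GALNT family starts mucin-type O-glycans, and 13 of its 18 members were tested. Of these, 9 had a mean that was higher in A549-TIPARP cells and 4 a lower mean, with a median log2 fold change of 0.16 and a range from -0.41 to 0.82. For the 37 tested members outside the family, 16 were higher and 21 lower, with a median of -0.01. The split within the GALNT family was 9 to 4 after rescaling as well, and it ranged between 7 to 6 without A549-GFP replicate 3 and 9 to 4 when single libraries were left out. The median of 0.16 depended more on the libraries, reaching 0.40 without A549-GFP replicate 1 and 0.36 without A549-TIPARP replicate 3, and it was 0.33 over the 12 GALNT members that exceeded 2 TPM in at least 3 libraries. These are counts of means, and no member of the family passed the adjusted test.

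GALNT6, a member known from secretory epithelia and breast carcinoma, lies at chr12:51351247-51392867 on the minus strand (hg38). It stood at 3.33, 3.74 and 3.46 TPM in the control (A549-GFP) replicates 1, 2 and 3 and at 6.01, 4.83 and 5.64 TPM in A549-TIPARP replicates 1, 2 and 3. The lines did not overlap, and the log2 TPM was 1.81 ± 0.08 (SD, n = 3) in A549-GFP cells and 2.45 ± 0.16 (SD, n = 3) in A549-TIPARP cells, a 1.56-fold difference. The limma log2 fold change was 0.52 (SE 0.205, 95% interval 0.06 to 0.99), with an unadjusted limma p-value of 0.0324 and an adjusted one of 0.994.

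GALNT18 lies at chr11:11270877-11622005 on the minus strand. Its level was 7.41, 5.24 and 6.87 TPM in the A549-GFP replicates and 12.5, 10.9 and 8.09 TPM in the A549-TIPARP replicates, in the order 1, 2 and 3. All A549-TIPARP values were the higher, replicate 3 by the least, and the fold of the means was 1.605. Limma gave a log2 fold change of 0.61 (SE 0.242, 95% interval 0.06 to 1.16) and an unadjusted p-value of 0.0347, which became 0.994 after adjustment.

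GALNT12, which lies at chr9:98807670-98850081 on the plus strand and starts O-glycans in the gut and other epithelia, was measured at 10.9, 8.37 and 8.96 TPM in A549-GFP replicates 1 to 3 and at 12.9, 12.5 and 14.3 TPM in A549-TIPARP replicates 1 to 3. The lines did not overlap and the fold was 1.41, with a limma log2 fold change of 0.46 (SE 0.205) and an unadjusted limma p-value of 0.0551. GALNT14, at chr2:30910467-31155202 on the minus strand, was at 17.5, 7.66 and 16.7 TPM in the control replicates and at 18.0, 22.3 and 18.3 TPM in A549-TIPARP replicates. Here the difference rested largely on A549-GFP replicate 2, since A549-GFP replicates 1 and 3 lay just below the lowest A549-TIPARP library. The limma log2 fold change of GALNT14 was 0.53 (SE 0.310), with an unadjusted limma p-value of 0.123, it was 0.18 without A549-GFP replicate 2, and the lines overlapped after rescaling.

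The GALNT transcripts with the highest levels, GALNT1 and GALNT2, encode broadly expressed enzymes and did not separate the lines. GALNT1 was at 68.6, 77.4 and 43.7 TPM in the control replicates and at 62.0, 59.4 and 52.9 TPM in A549-TIPARP replicates. GALNT2 was at 58.7, 28.2 and 44.8 TPM and at 49.96, 57.9 and 36.01 TPM in the same order. For both, the A549-TIPARP values fell inside the range of the A549-GFP values. The limma log2 fold change was -0.08 for GALNT1 (95% interval -0.62 to 0.45) and 0.16 for GALNT2 (95% interval -0.51 to 0.83).

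Another pair of GALNT genes was singled out after their values were seen. GALNT9 had the largest fold of the member means on the deposited log2 TPM, 1.76, although on log2(TPM + 1) its limma log2 fold change of 0.57 was below the 0.61 of GALNT18. It lay close to the floor, with 1.298, 2.83 and 1.63 TPM in the control replicates and 2.41, 3.32 and 4.08 TPM in A549-TIPARP replicates, so that A549-GFP replicate 2 lay between the A549-TIPARP libraries. GALNT10 was at 31.8, 52.5 and 23.5 TPM in the control replicates and at 50.3, 44.5 and 54.6 TPM in A549-TIPARP replicates, and again only A549-GFP replicate 2 reached the A549-TIPARP range. The unadjusted limma p-value was 0.0679 for GALNT9 and 0.0938 for GALNT10. After rescaling it was under 0.05 for both, as for 5.96% of all genes. GALNT4 cannot be read on its own, because a read-through transcript, POC1B-GALNT4, carries its sequence. GALNT4 ranged from 7.80 to 23.1 TPM and the read-through entry from 7.49 to 21.7 TPM, with the highest library A549-GFP replicate 2 for both.

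**Figure D3:**
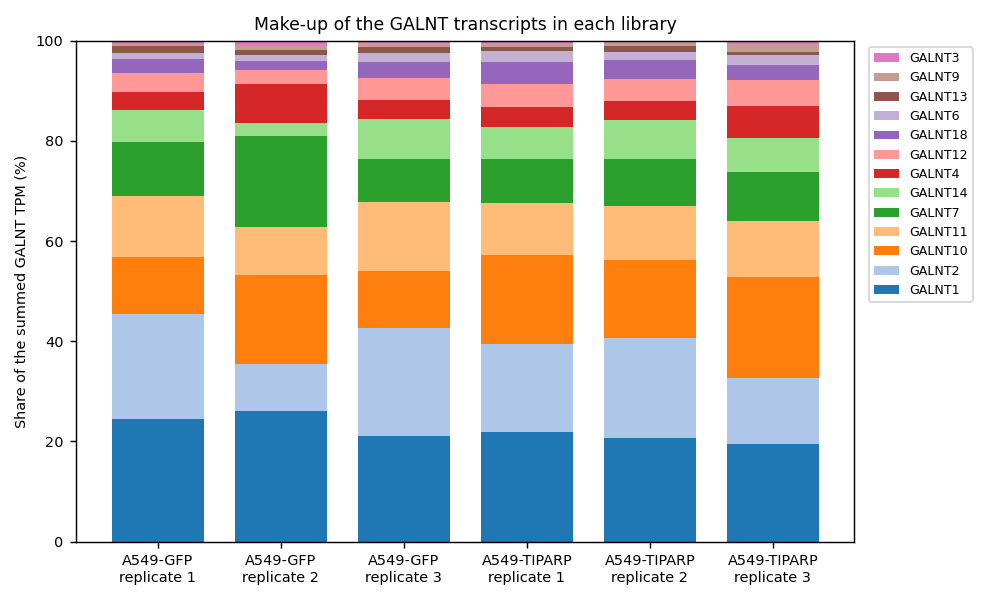
Make-up of the GALNT transcripts in each library, as the percentage of the summed GALNT TPM (vertical axis) that each of the 13 members above the floor takes. GALNT1 took between 19.5% and 26.0%, and GALNT6 and GALNT12 took larger shares in every A549-TIPARP library than in any A549-GFP library.

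The summed GALNT level was 280, 297 and 208 TPM in the control replicates and 283, 288 and 272 TPM in A549-TIPARP replicates, so the lines overlapped in the total. Within this total GALNT6 took 1.37% ± 0.257 (SD, n = 3) in A549-GFP cells and 1.96% ± 0.246 (SD, n = 3) in A549-TIPARP cells, and GALNT12 took 3.68% ± 0.777 (SD, n = 3) and 4.72% ± 0.495 (SD, n = 3). Neither share overlapped between the lines, though for GALNT6 the highest A549-GFP share was 1.67% and the lowest A549-TIPARP share 1.67%, equal after rounding, and for GALNT12 these were 4.32% and 4.34%. The shares of GALNT18 and GALNT14 did overlap. Separated shares were not particular to the GALNT family. Within their own roles, MGAT1 and ST3GAL4 took smaller shares in every A549-TIPARP library than in any A549-GFP library, and ST3GAL3 and ST6GALNAC6 larger ones.

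The promoter table used here, from RefSeq (GRCh38.p14), was matched by gene ID to 40 of the 50 tested members, among them GALNT12, GALNT14 and ST3GAL4, and the windows of GALNT12 and GALNT14 are shown because these are the GALNT genes with separated lines that had an entry. Each is printed 5′ to 3′ on the strand of the gene, up to the base before the transcript start and leaving out bases that GENCODE 44 places in an untranslated region, with capitals at GGGCGG or its reverse complement CCGCCC, the GC box. The GALNT12 window is chr9:98807420-98807669 (plus strand), directly before the gene. The windows of GALNT14 are chr2:31138504-31138690 and chr2:31129641-31129890 (minus strand), before each of its 2 RefSeq starts, and both lie inside the longest GENCODE gene span.
GALNT12: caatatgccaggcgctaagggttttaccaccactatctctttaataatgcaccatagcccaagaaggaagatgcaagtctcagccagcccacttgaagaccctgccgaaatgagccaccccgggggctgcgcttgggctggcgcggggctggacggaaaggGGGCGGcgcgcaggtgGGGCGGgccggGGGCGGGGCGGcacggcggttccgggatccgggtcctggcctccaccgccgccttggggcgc
GALNT14, first start: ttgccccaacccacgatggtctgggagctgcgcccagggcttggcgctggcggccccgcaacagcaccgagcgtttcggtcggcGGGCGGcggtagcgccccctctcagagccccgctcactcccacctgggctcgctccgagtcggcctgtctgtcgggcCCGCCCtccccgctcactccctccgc
GALNT14, second start: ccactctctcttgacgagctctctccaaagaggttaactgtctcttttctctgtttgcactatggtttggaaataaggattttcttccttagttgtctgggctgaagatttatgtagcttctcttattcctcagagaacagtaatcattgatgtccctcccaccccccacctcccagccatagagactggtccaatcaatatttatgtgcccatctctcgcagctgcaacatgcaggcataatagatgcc
The GALNT12 window held 4 GC boxes with 67.2% G and C bases, the first GALNT14 window held 2 with 74.3%, and the second held 0 with 45.2%. Over the 250 bases before the start, a GC box on either strand was present in 56.6% of the 76 promoters of tested members, 63.4% of the promoters of all genes tested and 42.6% of the 35116 promoters listed. GCGTG or CACGC, the core that AHR recognizes, was in none of the windows of GALNT12, GALNT14 or ST3GAL4, and was in 40.8% of the promoters of tested members, 43.6% of those of all genes tested and 32.2% of all listed. These matches are descriptions of the letters in the windows.

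MGAT enzymes build the branches of N-glycans, and 5 of the 7 members were tested, 2 higher in mean in A549-TIPARP cells and 3 lower. Their fold changes were the most compact of the roles with more than 2 tested members, from -0.10 to 0.18 on the log2 scale. MGAT4B, which adds a beta-1,4-linked branch, was 52.9% of the summed MGAT level on average over the 6 libraries. It was at 124, 148 and 115 TPM in the control replicates and at 153, 129 and 155 TPM in A549-TIPARP replicates, with overlap and a limma log2 fold change of 0.18 (95% interval -0.22 to 0.57), which became 0.28 when A549-GFP replicate 2 was left out and 0.0963 when replicate 3 of that line was. MGAT1, which adds the first branch and so opens the way to hybrid and complex N-glycans, was at 50.5, 62.7 and 45.6 TPM and at 53.4, 49.4 and 51.2 TPM. Its A549-TIPARP values lay within the A549-GFP range, and its limma interval ran from -0.45 to 0.39. MGAT2, MGAT5 and MGAT5B, with means of 36.6, 11.3 and 20.4 TPM over the 6 libraries, also overlapped.

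Of the beta-1,6 branching enzymes, GCNT3 and GCNT2 alone of 5 members were above the floor. GCNT3, the mucin-type enzyme that makes core 2 and core 4 O-glycans, was at 98.4, 113 and 82.0 TPM in the control replicates and at 91.7, 93.4 and 97.8 TPM in A549-TIPARP replicates. GCNT2, the I-branching enzyme of poly-N-acetyllactosamine chains, was at 16.7, 10.05 and 13.7 TPM and at 12.7, 13.4 and 11.6 TPM. In both genes the A549-TIPARP libraries sat inside the A549-GFP range, and the limma log2 fold change was -0.04 for GCNT3 (95% interval -0.44 to 0.36) and -0.07 for GCNT2 (95% interval -0.61 to 0.46).

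Chain extension was the largest group, with 25 members, 17 above the floor and 15 tested, and it made up between 40.9% and 44.9% of the summed TPM of all members in each library. Of the 15, 8 were higher in mean in A549-TIPARP cells and 7 lower, with a median log2 fold change of 0.01, and none separated the lines. B4GALT1, the galactosyltransferase that forms N-acetyllactosamine, had the highest mean level of all members at 167 TPM. Its values were 156, 258 and 119 TPM in the control replicates and 146, 132 and 193 TPM in A549-TIPARP replicates. B4GALT4, another beta-1,4-galactosyltransferase, was at 127, 170 and 138 TPM and at 134, 174 and 161 TPM. The lines overlapped for both, and their limma log2 fold changes were -0.12 (95% interval -0.77 to 0.53) and 0.11 (95% interval -0.30 to 0.53). With single libraries left out, that of B4GALT4 ranged from 0.0225 without A549-GFP replicate 1 to 0.23 without A549-GFP replicate 2, and it was 0.0319 without A549-TIPARP replicate 2 and 0.22 without A549-TIPARP replicate 1. The other tested members of the group ranged in mean level from 2.01 TPM for B3GALT4, a ganglioside enzyme, to 53.7 TPM for B4GALT5, a lactosylceramide synthase. B3GNT3, which extends core 1 O-glycans and was named after its values were seen, showed how far single libraries could lie apart, at 25.7, 70.8 and 21.5 TPM in the control replicates and 27.9, 25.1 and 36.2 TPM in A549-TIPARP replicates.

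Fucosyltransferases had the lowest levels, between 1.37% and 2.04% of the summed TPM of all members in each library. There were 5 of 11 FUT genes tested, 3 higher in mean in A549-TIPARP cells and 2 lower. FUT8, which adds the core fucose of N-glycans, was 50.4% of the FUT total on average. It was at 13.1, 14.4 and 7.30 TPM in the control replicates and at 15.2, 13.1 and 13.5 TPM in A549-TIPARP replicates. FUT11 was at 9.30, 5.42 and 4.48 TPM and at 7.06, 7.36 and 4.61 TPM. The lines overlapped, with a limma log2 fold change of 0.29 for FUT8 (95% interval -0.32 to 0.91) and 0.02 for FUT11 (95% interval -0.66 to 0.70). That of FUT8 was 0.0160 without A549-GFP replicate 3, its lowest library, and 0.46 without A549-GFP replicate 2. FUT1, which makes the H antigen and was named after its values were seen, was above the floor only in A549-GFP replicate 2, at 2.36 TPM, and passed the filter through that library.

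Sialyltransferases cap the chains, and 10 of 14 members were tested, 3 higher in mean in A549-TIPARP cells and 7 lower, at a median log2 fold change of -0.06. After rescaling, 22 of the 37 tested members outside the GALNT family had the higher mean, so the direction of small differences in this and the other groups depends on the scaling. ST3GAL4, which adds alpha-2,3-linked sialic acid to galactose, lies at chr11:126355640-126440344 on the plus strand and was the one member with all A549-TIPARP libraries below all A549-GFP libraries. It was at 19.7, 26.4 and 17.7 TPM in the control replicates and at 16.0, 14.5 and 11.6 TPM in A549-TIPARP replicates. The gap between the lines was small, from 17.7 to 16.0 TPM, and the fold was 1.51. Limma gave a log2 fold change of -0.56 (SE 0.229, 95% interval -1.08 to -0.04) with an unadjusted p-value of 0.0388 and an adjusted p-value of 0.994.

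ST3GAL5, the GM3 ganglioside synthase, had the highest sialyltransferase level, with 36.4, 39.4 and 38.5 TPM in the control replicates and 38.1, 47.1 and 35.7 TPM in A549-TIPARP replicates. ST6GALNAC4, which adds sialic acid to the N-acetylgalactosamine of O-glycans, was at 25.5, 43.9 and 31.4 TPM and at 24.5, 27.6 and 40.7 TPM. The lines overlapped for both, with limma log2 fold changes of 0.07 (95% interval -0.35 to 0.49) and -0.11 (95% interval -0.73 to 0.50). ST6GAL2, which adds alpha-2,6-linked sialic acid and was named after its values were seen, had the most negative fold change of the members. It was at 30.0, 33.3 and 24.5 TPM in the control replicates and at 14.2, 14.9 and 29.3 TPM in A549-TIPARP replicates, and A549-TIPARP replicate 3 lay among the A549-GFP values. The unadjusted limma p-value of ST6GAL2 was 0.0617.

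**Figure D4:**
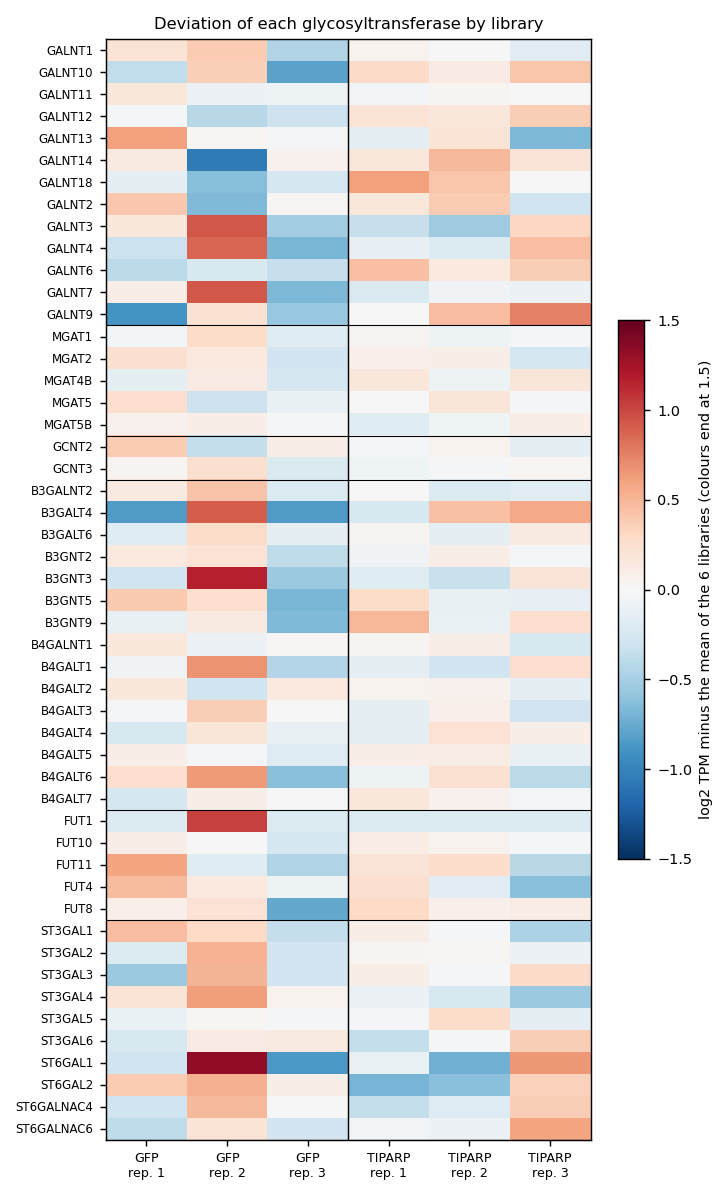
Deviation of each of the 50 tested members in each library from its mean over the 6 libraries, in log2 TPM, by role (rows) and library (columns). Red is above and blue below the mean, with colours ending at 1.5, and A549-GFP replicate 2 holds the strongest colours, such as ST6GAL1, B3GNT3 and FUT1 above and GALNT14 below their means.

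Differences between libraries of 1 line were a large part of the variation. The SD of the log2 TPM within A549-GFP cells had a median of 0.32 over the 50 members and that within A549-TIPARP cells 0.18, and the first was the larger for 40 of the 50 members, or 80%, and for 79.6% of all genes. A549-GFP replicate 2 was the highest library for 22 of the 50 members, or 44%, and for 52.0% of all genes, and A549-GFP replicate 3 was the highest for 0 members. The widest spread was that of ST6GAL1, the main alpha-2,6-sialyltransferase of N-glycans, at 10.3, 31.8 and 6.94 TPM in the control replicates and 11.8, 7.66 and 19.9 TPM in A549-TIPARP replicates.

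The counts above shifted when single libraries were left out. Without A549-GFP replicate 2, 5 members (GALNT6, GALNT9, GALNT10, B3GALT4 and ST3GAL3) or 10% had an unadjusted limma p-value under 0.05, against 10.5% of all genes, and 2 members, B3GALT4 and GALNT9, were more than 2-fold higher in A549-TIPARP cells, where 2.91% of all genes were. Without A549-TIPARP replicate 1 or without A549-TIPARP replicate 2 no member had an unadjusted limma p-value under 0.05, and without A549-GFP replicate 1 only GALNT18 had, where 3.16% of all genes did. Without A549-TIPARP replicate 3 these were GALNT18 and ST6GAL2, against 2.42% of all genes, and without A549-GFP replicate 3 they were GALNT6, GALNT18 and ST3GAL4, as with all libraries, against 8.23%. GALNT9 was more than 2-fold higher without A549-TIPARP replicate 1 as well, where 1.73% of all genes were. GALNT6, GALNT12 and GALNT18 kept all A549-TIPARP libraries above all A549-GFP libraries after rescaling, together with GALNT9, GALNT10, FUT8 and B3GNT9. These 7 of 50 members stood beside 6.96% of all genes after rescaling.

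The genes around the glycosyltransferases were read from lists of the same pathways. Of 17 mucin genes, the acceptors of these O-glycans, 5 were tested, 2 higher in mean in A549-TIPARP cells and 3 lower. MUC1, a membrane-bound mucin, was at 3.25, 4.77 and 3.03 TPM in the control replicates and at 9.15, 5.19 and 16.5 TPM in A549-TIPARP replicates. MUC13, another membrane-bound mucin, was at 77.1, 134 and 62.0 TPM and at 45.5, 34.4 and 49.6 TPM. The lines did not overlap for either gene, MUC1 being the higher in A549-TIPARP cells and MUC13 the lower. These were 2 of the 5 tested mucins, against 8.91% of all genes in either direction. The limma log2 fold changes of MUC1 and MUC13 were 1.16 (SE 0.371, with a limma adjusted p-value of 0.966) and -0.998 (SE 0.292, with a limma adjusted p-value of 0.856). MUC5AC, a secreted gel-forming mucin, was at 14.5, 106 and 21.2 TPM and at 7.01, 17.3 and 22.6 TPM. MUC5B, another gel-forming mucin, was named after its values were seen and stood at 149, 1047 and 136 TPM and at 98.1, 91.8 and 329 TPM. A549-GFP replicate 2 was the highest library for both secreted mucins, and the remaining libraries overlapped. The limma log2 fold change of MUC1 fell below the 2-fold line without A549-TIPARP replicate 3, at 0.78. The difference of MUC13 was at the edge of 2-fold, at -1.01 on the deposited log2 TPM, and its limma log2 fold change was -0.93 after rescaling and -0.68 without A549-GFP replicate 2. The limma log2 fold change of MUC5AC was -1.14, and it was -0.30 without A549-GFP replicate 2 and -0.68 without A549-TIPARP replicate 1.

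Among 20 related transferases outside the symbol rule, 8 were tested, 3 higher in mean in A549-TIPARP cells and 5 lower. B4GALNT4, which forms N-acetylgalactosamine-beta-1,4-N-acetylglucosamine ends on N- and O-glycans, was at 5.42, 2.25 and 4.45 TPM in the control replicates and at 10.5, 9.29 and 14.6 TPM in A549-TIPARP replicates. Every A549-TIPARP value was the higher, as for 5.36% of all genes. The fold was 2.97, and the limma log2 fold change was 1.34 (SE 0.306), with a limma adjusted p-value of 0.516. C1GALT1, the core 1 galactosyltransferase, and C1GALT1C1, its chaperone, were read for their place after the GALNT step. C1GALT1 was between 13.0 and 22.2 TPM and C1GALT1C1 between 39.8 and 93.6 TPM over the 6 libraries, and the lines overlapped for both.

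**Figure D5:**
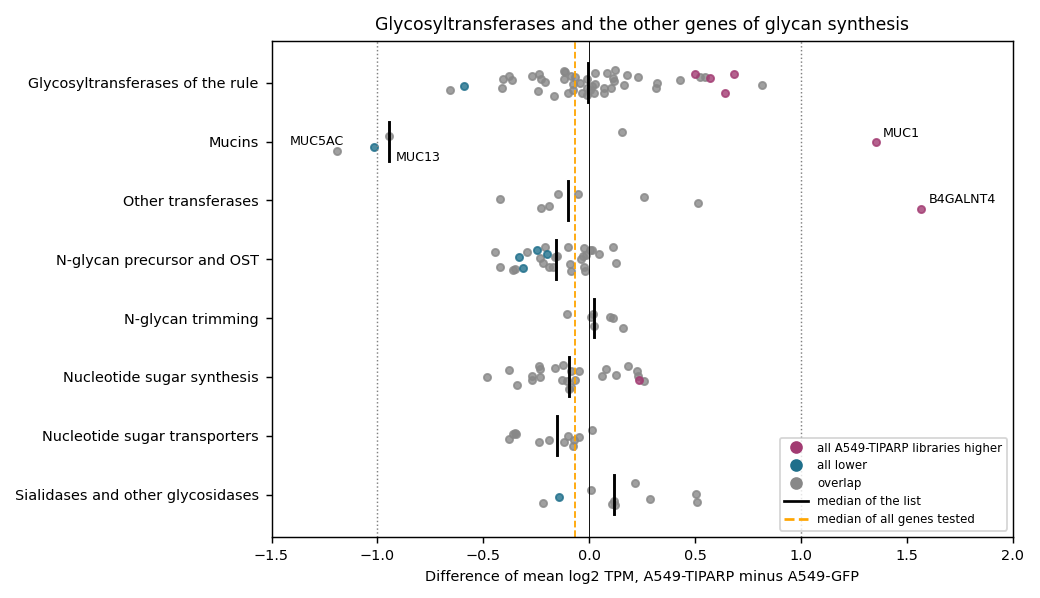
Difference of the mean log2 TPM between the lines (horizontal axis) for each tested gene of the glycosyltransferases and of 7 lists of other genes of glycan synthesis and breakdown, with the median of each list as a black bar and that of all genes tested as a dashed line. Most genes lay within 2-fold (dotted lines), with MUC1 and B4GALNT4 beyond it on the higher side and MUC5AC and, at the 2-fold line, MUC13 on the lower side.

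The N-glycan precursor and oligosaccharyltransferase genes were all above the floor, and 5 of 30 were higher in mean in A549-TIPARP cells and 25 lower, at a median log2 fold change of -0.16 beside -0.07 over all genes. The 4 genes with all A549-TIPARP libraries below all A549-GFP libraries were DPAGT1, ALG3, ALG5 and DAD1, where 3.54% of all genes were so placed, and 0 of 30 had an unadjusted limma p-value under 0.05. OST4, an oligosaccharyltransferase subunit and the gene of the highest level in the list, was at 551, 766 and 624 TPM in the control replicates and at 638, 618 and 639 TPM in A549-TIPARP replicates. Transporters of the nucleotide sugar transporter family were lower in mean for 11 of 12 tested genes, with a median of -0.15. SLC35B1, the transporter gene of the highest level, was at 85.8, 149 and 79.1 TPM and at 84.8, 76.7 and 75.7 TPM. In SLC35B1 the highest value was that of A549-GFP replicate 2, and its limma log2 fold change was -0.34 with that library and -0.0602 without it. Without this library, in a comparison added after the data were seen, the split was 6 higher and 6 lower for the transporters and 12 higher and 18 lower for the precursor and oligosaccharyltransferase genes, and after rescaling it was 2 to 10 and 11 to 19. The share of all genes with the higher mean in A549-TIPARP cells moved as well, from 40.1% to 56.9% without this library and to 49.9% after rescaling, and the median over all genes was 0.05 without the library.

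Nucleotide sugar synthesis genes were higher in mean for 8 of 25 and lower for 17, a split that became 12 to 13 without A549-GFP replicate 2 (beside the 56.9% of all genes), and UGDH, which makes UDP-glucuronate and had the highest level, was at 442, 389 and 324 TPM in the control replicates and at 361, 373 and 346 TPM in A549-TIPARP replicates. Trimming glycosidases of N-glycans were higher in mean for 6 of 7 with or without A549-GFP replicate 2. Their median log2 fold change was only 0.02 with that library, and 0.18 without it (beside the 56.9% of all genes). MAN1A2, among those higher, had a limma log2 fold change of -0.01 on log2(TPM + 1). PRKCSH, a glucosidase II subunit, led the list in level at 189, 209 and 212 TPM and at 204, 201 and 250 TPM. Sialidases, fucosidases, galactosidases and hexosaminidases were higher in mean for 8 of 10, at a median of 0.12. The split was the same without A549-GFP replicate 2, at a median of 0.25. HEXA, the gene of the highest level, was at 92.2, 102 and 88.1 TPM and at 110, 101 and 116 TPM. The lines overlapped for UGDH, PRKCSH and HEXA. Of the 25 nucleotide sugar synthesis genes 1 was separated, GALK1 or galactokinase, at 66.7, 65.2 and 79.5 TPM and at 79.5, 82.4 and 86.3 TPM, against 5.36% of all genes in that direction. Of the 10 glycosidases 1 was, FUCA2, a fucosidase, at 85.8, 84.99 and 81.7 TPM and at 76.2, 81.4 and 71.4 TPM, against 3.54% of all genes. In both the lines nearly touched, and none of these 3 lists held a gene with an unadjusted limma p-value under 0.05.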

How the data were processed

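Total RNA was extracted with TRIzol, and libraries were made with a stranded mRNA kit and sequenced in pairs by Macrogen on an Illumina NovaSeq. Alignment by the authors was to human transcript sequences (hg38) in Strand NGS, with its default settings, and they deposited 1 table per library with log2 TPM per gene entry, in which TPM below 1 had been set to 1. The software version, the annotation release, the strand setting and the handling of multi-mapping reads are not given in the sources used here, so transcripts that share sequence with another entry are uncertain. Antisense entries of members reached at most 1.62 TPM.

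Libraries were grouped by title. Fold changes are differences of mean deposited log2 TPM. As in the study, a gene was kept where 1 or more of the 6 libraries exceeded 2 TPM (13181 genes). Since the values are not counts, the test was that of limma 3.58.1 (R 4.3.3), fitted to log2(TPM + 1) with a trended prior variance, all 6 libraries, no block and Benjamini-Hochberg adjustment over all genes. The script was tested on simulated data. Same-numbered libraries of the lines had deviations correlated at 0.41, -0.49 and -0.36, so the numbers were not taken as pairs. Alternatives were other log scales and pseudocounts, a stricter filter (3 libraries), no filter, median-ratio rescaling, no trend, a replicate block and each library left out.

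Members and lists were chosen with earlier results of these data known. One leukocyte marker is not reported here. Named with values were members more than 2-fold apart, with an unadjusted limma p-value under 0.05 or with separated lines, the 2 of highest mean TPM in each role, and list genes more than 2-fold apart or with an unadjusted limma p-value under 0.05, or else the one of highest mean TPM. List genes with separated lines alone were added after their values were seen. Others are said to be named after their values were seen. In the mucin list and among the related transferases, MUC5B, C1GALT1 and C1GALT1C1 lie outside the rule. Gene positions are those of GENCODE 44 (hg38), and promoters those of RefSeq, read in Python 3.11.15.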

Additional observations from a re-analysis of the deposited data

How the results depend on the processing

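No alternative gave a member with a limma adjusted p-value under 0.05, and 319 of 338 alternative fits of 26 named genes kept their direction. That count says little about stability. Many of the fits used the same 6 libraries with another log scale, filter, trend or block, which can hardly change a direction. Some of the genes were named for separated lines or small p-values in these data. The number of members more than 2-fold higher ranged from 0 to 2 with single libraries left out. Members with separated lines numbered 8 after median-ratio rescaling, beside 11.99% of all genes, and ranged from 7 to 17 with single libraries left out, where fewer libraries must be separated. The 17, without A549-GFP replicate 2, stood beside 27.7% of all genes, and the 14 without A549-GFP replicate 3 beside 30.7%, and the 7 to 9 without another library beside 11.7% to 16.1%. Members with an unadjusted limma p-value under 0.05 numbered 6 after rescaling, beside 5.96% of all genes. They were GALNT6, GALNT9, GALNT10, GALNT12 and GALNT18, all higher in A549-TIPARP cells, and ST3GAL4, lower. The number of such members ranged from 0 to 5 with single libraries left out. The 0 stood beside 1.92% without A549-TIPARP replicate 1 and 2.99% without A549-TIPARP replicate 2, and the 5 beside 10.5%. With the replicate block, 0 members had an adjusted and 2 an unadjusted limma p-value under 0.05, against 0 and 3 without it. Over all genes the block took the adjusted calls from 2 to 1 and the unadjusted ones from 3.85% to 3.14%.

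Rescaling turned the limma log2 fold change to 0.0329 for MGAT1, 0.0240 for GCNT3 and 0.0430 for OST4. With single libraries left out, the direction turned for genes near no difference, and the fold change ranged from -0.13 to 0.0943 for MGAT1, from -0.26 to 0.0850 for GCNT2, from -0.16 to 0.0688 for GCNT3, from -0.37 to 0.18 for B4GALT1, from -0.17 to 0.29 for FUT11, from -0.0445 to 0.15 for ST3GAL5, from -0.32 to 0.0913 for ST6GALNAC4, from -0.32 to 0.0805 for GALNT1, from -0.12 to 0.39 for GALNT2, from -0.13 to 0.11 for OST4, from -0.0039 to 0.15 for PRKCSH and from -0.20 to 0.0187 for UGDH. For these genes the cause was not tested. The floor of 1 TPM hides differences below it, and without counts the depth of a library could not be weighed.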
